A study of Schizosaccharomyces pombe with 2 samples.

Results

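The 4 genes described here, *mei2*, *ste7*, *mug4* and *mug14*, were grouped under the entry into meiosis of fission yeast. For *mug4* and *mug14* the sources used here give no role at that step. The 4 genes were selected on their expression in this same experiment. All 4 belong to the 64 of 4997 array features that were lower by more than 2-fold in the *lsg1Δ* strain in the authors' normalized table. Their direction is therefore a description and supports nothing. Haploid cells of JY450 (wild-type, genotype h90 ade6-M216 leu1) were compared with cells of JT659 (*lsg1Δ*, genotype h90 lsg1::kanR ade6-M216 leu1), in which a drug-resistance cassette takes the place of *lsg1*, the gene of the γ subunit of the CTD kinase CTDK-I. Both strains are homothallic, so that cells within 1 culture can mate with each other, and both carry the same adenine and leucine markers. They were grown in minimal medium and starved of nitrogen for 2.5 h by their titles and growth protocol, or 2 h by their treatment label. Total RNA of each strain was hybridized to 1 single-color array, so no test between strains is possible, and the deletion, the culture and the array cannot be told apart as the source of a difference. In such whole-culture RNA, fewer cells expressing a gene and less RNA per cell cannot be told apart either.

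Fission yeast cells that run out of nitrogen stop dividing, mate, and go through meiosis. The HMG-family transcription factor Ste11 turns on the genes that this program needs, and *mei2* is one of its targets. Mei2 is an RNA-binding protein that switches cells from mitosis to meiosis. It is held inactive by Pat1 kinase in growing cells, and once active it takes out of action a factor that destroys meiotic transcripts. Ste7 is an arrestin-family protein required for mating, and it holds back meiosis until mating has taken place. The mug genes were named as meiotically upregulated genes, from their transcript pattern. The product of *mug14* belongs to the adducin family.

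Each gene was read by 7 probes, and each probe by 2 spots on each array. The median spot intensity was 6737 on the wild-type array and 5685.5 on the *lsg1Δ* array. Ratios given here are log2 of *lsg1Δ* over wild-type after background correction and quantile normalization, summarized over the probes, and the SD beside a ratio is the spread of the 7 probes, which says nothing of the spread between cultures. Probes count as above background where their mean intensity was greater than the 5th percentile of all spots, which was 1108.65 on the wild-type array and 912 on the *lsg1Δ* array. The deleted gene was at background in the mutant. For *lsg1*, the mean intensities of the probes ran from 1547.5 to 12362 in wild-type and from 176.5 to 212.5 in *lsg1Δ*. Since 0 of the 7 *lsg1* probes were above background in *lsg1Δ*, the strain labels hold for this gene. The 5th percentile is a chosen limit and not a measured background. The *lsg1* probes in *lsg1Δ* lay far under it, so a probe under the limit can still carry signal.

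Expression of all 4 genes was lower in the *lsg1Δ* strain, and that of *mei2* by far the most. The level of *mei2* was 5.76-fold lower, that of *mug14* 2.33-fold lower, that of *mug4* 2.23-fold lower and that of *ste7* 2.16-fold lower. All 28 probes of these genes were lower in *lsg1Δ*, and 24 of the 28 were lower by more than 2-fold after normalization. All 4 genes were past 2-fold, against 1.06% of all 4997 features, and nothing can be read from this since the same contrast chose them. In the authors' deposited table, where the choice was made, 1.28% of features were lower by more than 2-fold. Features of that table closest to the limit were at -1.005 just inside it and at -0.995 just outside it.

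**Figure D1:**
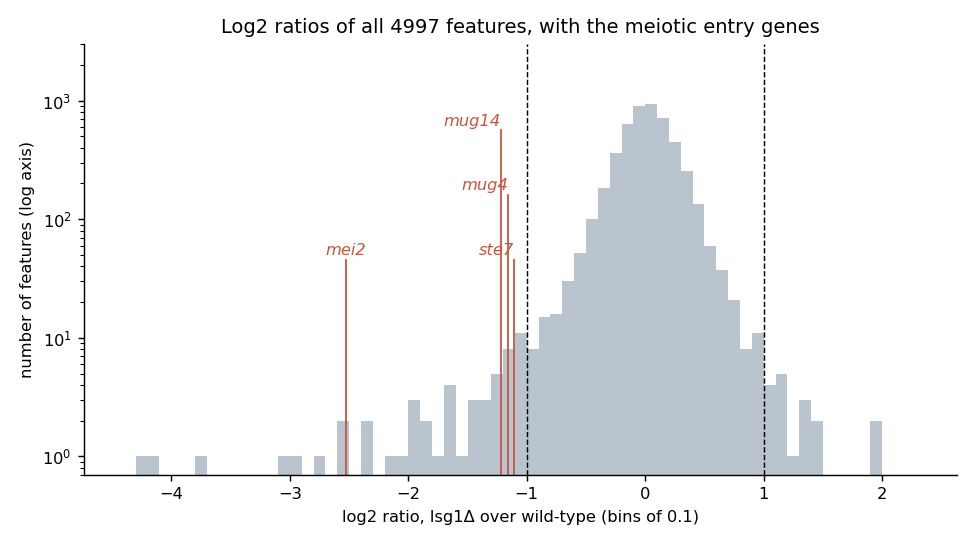
Number of features (vertical, log axis) by log2 ratio of *lsg1Δ* over wild-type (horizontal, bins of 0.1), with lines at *mei2*, *mug14*, *mug4* and *ste7* and dashed lines at 2-fold. *mei2* lies at -2.53, well apart from the other 3 genes, which lie between -1.22 and -1.11.

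For *mei2* (SPAC27D7.03c, chromosome I), the 7 probes in order of their position on the array's target sequence had mean intensities of 12041, 39200.5, 30250, 44587, 11307, 15019 and 24032 in wild-type. In *lsg1Δ* the same probes had 2238.5, 5341, 4891, 8465.5, 1521.5, 2094 and 5983. Every *mei2* probe was far lower in the mutant, between 4.02-fold and 7.43-fold before normalization. All 7 probes were above background on both arrays, so a residual *mei2* signal was measured in *lsg1Δ*, at 17.4% of the wild-type level after normalization. The log2 ratio of *mei2* was -2.53 (SD 0.41 over 7 probes). In the authors' deposited table it was -3.22, so the share of signal left depended on the processing.

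Probes of *mei2* did not all fall to the same degree. Their log2 ratios ran from -3.06 at the probe in position 1668 to -1.86 at the last probe, in position 2154. The probe between them, in position 1953, was at -2.90. Before background correction and normalization, the probes in positions 1095, 1668 and 1953 were nearly alike, at -2.88, -2.89 and -2.84. The last probe was the highest there too, at -2.01. The 2 spots of a *mei2* probe agreed more closely than its probes did with each other, with an SD of 0.16 within probes against 0.41 between them. Single spots of *mei2*, 14 in all, gave log2 ratios between -3.07 and -1.74. The sources used here do not say what the positions count from.

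For *ste7* (SPAC23E2.03c, chromosome I), the wild-type probe intensities in order of position were 35883.5, 39178.5, 35471, 43162.5, 35478, 24598.5 and 19410. In *lsg1Δ* they were 14830.5, 14896.5, 14541, 19585.5, 15860.5, 9773.5 and 7026. Each *ste7* probe was lower in the mutant, between 2.20-fold and 2.76-fold before normalization. The log2 ratio of *ste7* was -1.11 (SD 0.11), which left 46.4% of the wild-type level. This was the most even fall of the 4 genes. Log2 ratios of its probes spanned 0.30, from -1.29 to -0.98, and the 2 probes that were not past 2-fold were the neighboring ones in positions 669 and 893, at -0.98 and -0.99.

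For *mug4* (SPCC1393.07c, chromosome III), wild-type probe intensities in order of position were 7971, 12159.5, 8846.5, 4780, 7101.5, 4836 and 886.5. In *lsg1Δ* they were 2810, 4513.5, 3563, 2085.5, 2300.5, 2169 and 461. All *mug4* probes were lower in the mutant, between 1.92-fold and 3.09-fold before normalization. The last probe, in position 2305, was below background on both arrays and had the smallest fall, with a log2 ratio of -0.78. The other 6 lay between -1.56 and -1.04, and the log2 ratio of the gene was -1.16 (SD 0.25). Without the last probe it was -1.22. The spots of 1 *mug4* probe, in position 1258, disagreed by 0.60 on the log2 scale, at -0.98 and -1.58, the widest gap between spots among the probes of the 4 genes. Across the array the median gap was 0.17.

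For *mug14* (SPBC359.06, chromosome II), the intensities of wild-type probes were 1914.5, 3191.5, 3216.5, 2837, 5915.5, 5731.5 and 6203.5 in order of position. In *lsg1Δ* they were 847.5, 1387.5, 1203, 1188.5, 3040.5, 2318 and 2511.5. Again each probe was lower in the mutant, between 1.95-fold and 2.67-fold before normalization. The log2 ratio of *mug14* was -1.22 (SD 0.23), or 43.0% of the wild-type level. Of its probes, 6 were past 2-fold, from -1.53 to -1.20, and the exception was the probe in position 447, at -0.80. The first *mug14* probe was below background in *lsg1Δ*, and the other 6 were above it. In the authors' list this locus carries the name mug15, and RefSeq names it *mug14*.

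**Figure D2:**
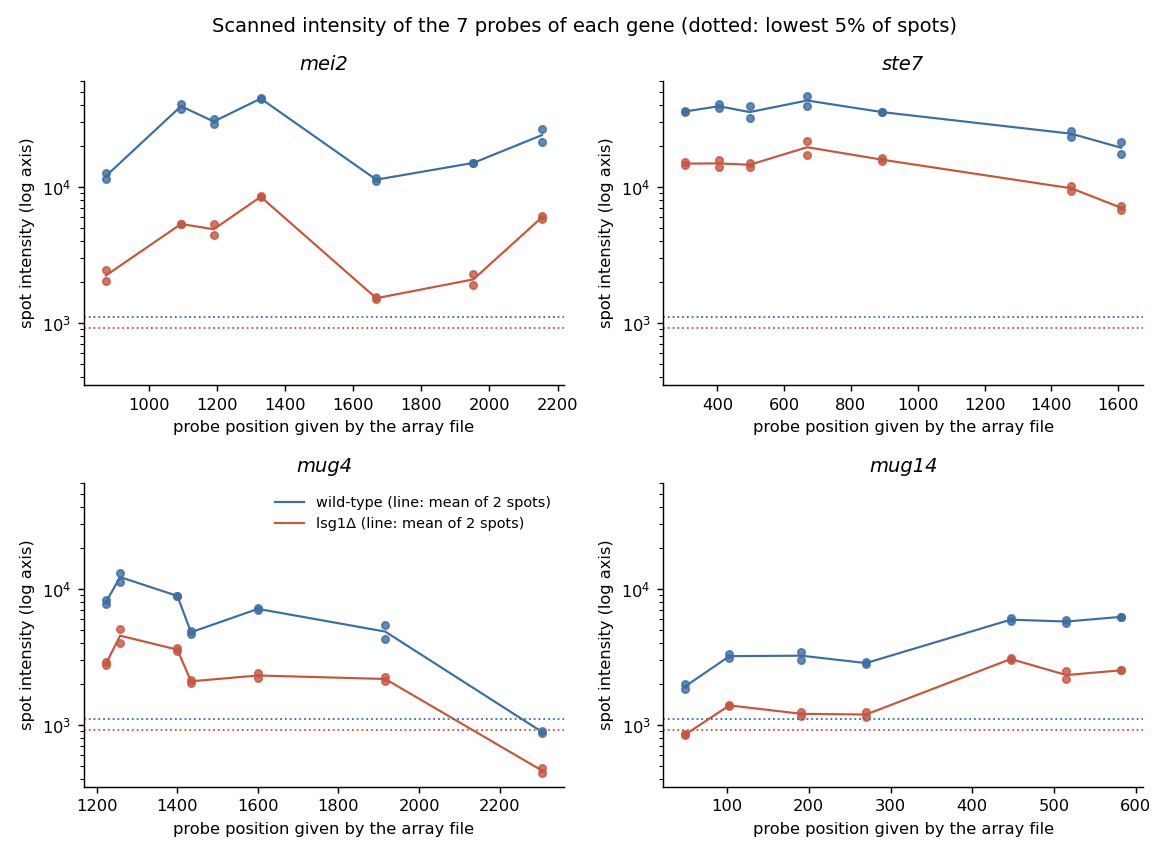
Intensity of each spot (circles, log axis) against probe position for the 7 probes of each gene, in wild-type (blue) and *lsg1Δ* (red), with lines through the means of the 2 spots and dotted lines at the lowest 5% of spots. The strains run nearly in parallel for *ste7*, and the gap is wider for *mei2*, whose wild-type probes run from 11307 to 44587 and whose *lsg1Δ* probes run from 1521.5 to 8465.5.

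The fall of *mei2* was set apart from those of the other genes beyond the spread of the probes. All 7 *mei2* probes had lower log2 ratios than any probe of *ste7*, *mug4* or *mug14*, and the gene ratio of *mei2* was 1.31 below that of *mug14*, its nearest neighbor in the order. The other 3 genes were not told apart from each other. Their log2 ratios spanned 0.11, less than the SD of the probes of any of them, and their probe ranges overlapped. By this order *mei2* fell most, followed by *mug14*, *mug4* and *ste7*, with the last 3 places undecided. Among all 4997 features *mei2* stood in the 7th place from the lowest ratio, *mug14* in the 34th, *mug4* in the 36th and *ste7* in the 42nd.

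**Figure D3:**
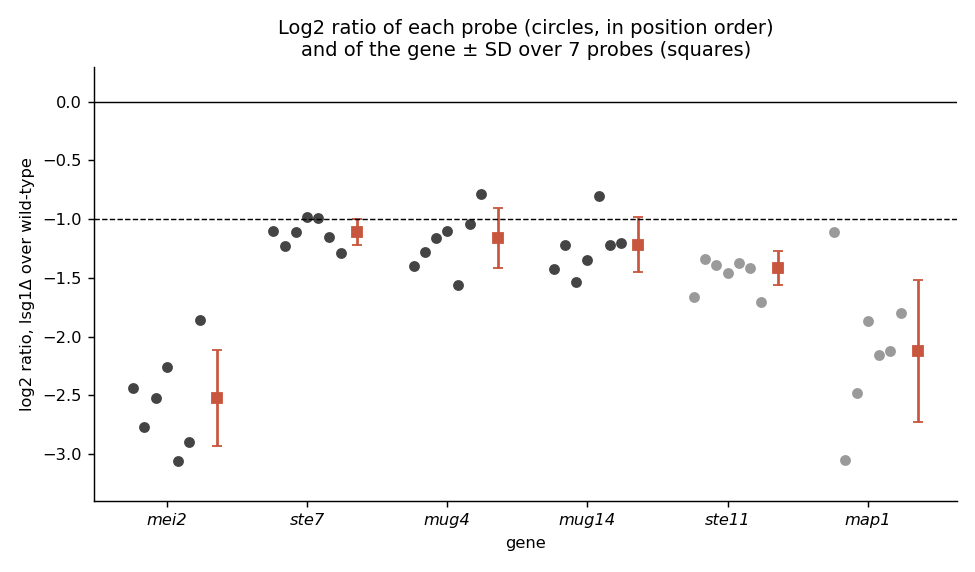
Log2 ratio of *lsg1Δ* over wild-type for each of the 7 probes (circles, in position order) of *mei2*, *ste7*, *mug4*, *mug14* and, in gray, *ste11* and *map1*. Red squares give the ratio of the gene with its SD over probes. The *mei2* probes, at -1.86 and below, lie under all probes of *ste7*, *mug4*, *mug14* and *ste11*. The highest and lowest *map1* probes, at -1.11 and -3.05, were not above background on both arrays, and its other 5 lie from -2.48 to -1.80.

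Set beside *ste11*, *mei2* showed the larger fall and *ste7* the smaller one. Transcripts of *ste11* had a log2 ratio of -1.41 (SD 0.15), with probes from -1.71 to -1.34. All 7 *mei2* probes lay below this range, and all 7 *ste7* probes, none lower than -1.29, lay above it. Single spots did overlap. Those of *ste11* ran from -1.85 to -1.17, while *mei2* spots reached up to -1.74 and *ste7* spots down to -1.38. Probe ranges of *mug4* and *mug14* overlapped that of *ste11*. The difference in log2 ratio from *ste11* was -1.11 for *mei2*, and over the 13 ways of processing the arrays it ran from -1.61 to -0.86. For *ste7* it was 0.30 and ran from 0.26 to 0.50. The log2 ratio of *map1*, which encodes a transcription factor of mating, was -2.12 (SD 0.60). Its 5 probes above background on both arrays had log2 ratios from -2.48 to -1.80, overlapping those of *mei2* and below every probe of *ste7*, *mug4* and *mug14*. The 2 dim ones, below the 5th percentile of spots in *lsg1Δ* or in both strains, were at -3.05 and -1.11. The log2 ratio of *map1* was -1.40 with the RMA adjustment, and that of *mei2* was lower than that of *map1* by 0.40 with the processing used here and by 0.33 to 1.97 over the 13. These comparisons rest on 1 array per strain, and the differences were not tested.

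The order within the group depended in part on how intensities were turned into levels. With each of the 13 ways of processing, *mei2* had the lowest log2 ratio of the 4 genes, at least 1.11 below the next. The other 3 changed places. The lowest of them was *mug14* in 10 of the 13, *mug4* in 2 and *ste7* in 1. These 13 are not independent of each other. Taking the median of probe ratios gave the same values as the processing used here. Median scaling and no normalization between arrays gave the same differences between genes. In the authors' deposited table, *mei2* went from 23021.39 in wild-type to 2476.71 in *lsg1Δ* and *ste7* from 31071.95 to 13181.97. There *mug4* went from 3472.98 to 1077.2 and *mug14* from 1187.67 to 536.42. By that table the log2 ratio of *mug4*, -1.69, was lower than those of *ste7*, -1.24, and *mug14*, -1.15. With the RMA background adjustment these 3 spread furthest, with *mug4* at -1.89, *ste7* at -1.25 and *mug14* at -0.80. Only *mug14* moved to the other side of 2-fold, with the RMA adjustment and with no background correction, where it was at -0.99.

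**Figure D4:**
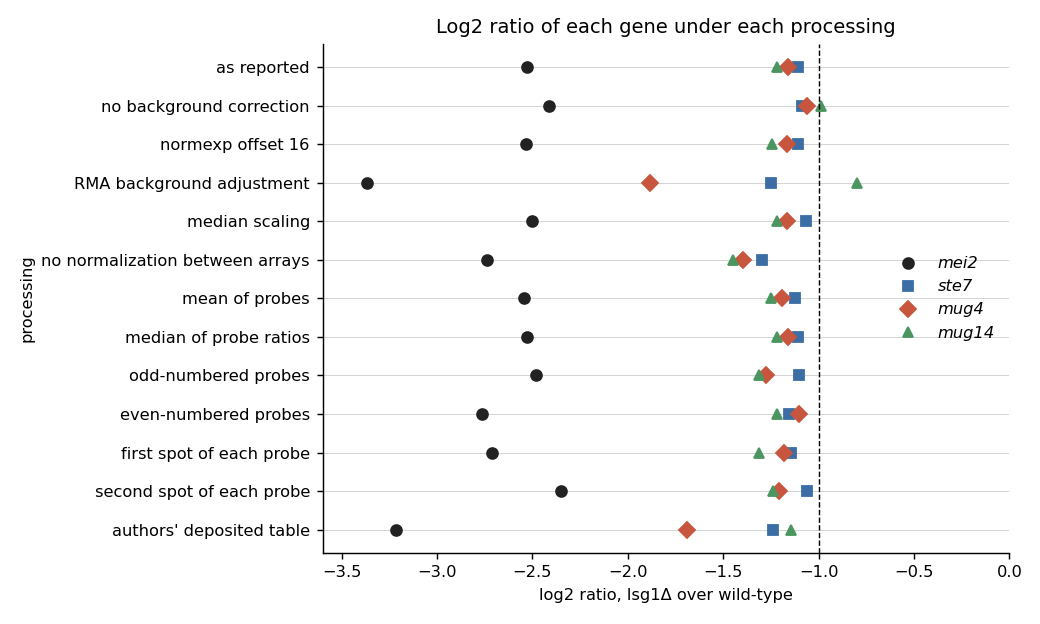
Log2 ratio of *lsg1Δ* over wild-type (horizontal) of each gene under each of the 13 ways of processing (rows), with a dashed line at 2-fold. *mei2* stays apart at the left, between -3.37 and -2.35, while *mug14* passes the line to -0.99 with no background correction and to -0.80 with the RMA adjustment.

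A list of 12 genes of the Mei2 switch and its regulators, among them the kinase gene *pat1* and its inhibitor gene *mei3*, had 3 genes that could be named on this array. These were *mei2*, *ste11* and *ste7*, each of which had fallen past 2-fold, with a median log2 ratio of -1.41 against 0.01 over all features. Of 12 early meiotic genes, including *mei4* and *rec8*, 0 could be named. The features could be named only through the authors' list of lowered genes, so that a gene is left unnamed unless it was lowered, and the levels of *pat1*, *mei3* and the others were not analysed here. Another list, of 20 genes, holds *ste11* with genes taken to be targets of Ste11, and whether each is a direct target was not tested. Of these 17 could be named, and the fall of each was past 2-fold, with a median log2 ratio of -1.91. Over all features 1.06% were past 2-fold, but of the 64 that could be named 48 were, so these counts are largely fixed by the naming. By its log2 ratio *mei2* was the 5th lowest of the 17.

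The mug genes that could be named were 3, each lower by more than 2-fold, and a mug gene outside the authors' list of lowered genes could not have been named. The one beside *mug4* and *mug14* was SPBC1604.01, listed as *mug158* and named *egt1* in RefSeq, which encodes an enzyme of ergothioneine synthesis. Its log2 ratio was -1.19 (SD 0.37), and its probes ran from -1.35 to -0.49. The 3 genes lay between -1.22 and -1.16 with the processing used here, and further apart in the deposited table, with *mug4* at -1.69, *egt1* at -1.46 and *mug14* at -1.15.

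Genes closest to each member in log2 ratio were sought among the 64 named features, over 1 array per strain. For *mei2* they were *ste6*, the exchange factor gene of Ras1, at a difference of 0.002, and *map3*, at 0.14, with wider probe SDs than *mei2* (0.93 and 0.70). For *mug14* they were *prm1*, at 0.01, and *egt1*, at 0.03. For *mug4* they were SPBC146.02 (0.004) and SPAC22F8.05 (0.01), and for *ste7* SPAPJ691.02 (0.01) and *bgl2* (0.02). These likenesses depended on the processing. In the authors' deposited table *mei2* and *ste6* were apart, at -3.22 and -2.42.

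The 4 genes lie at separate places in the genome. In the gene order of RefSeq, *mei2* had 5 protein-coding genes between it and the nearest other named gene, SPAC27D7.09c (log2 ratio -0.92). For *mug14* that gene was the hexose transporter gene *ght4* (-0.80), with 7 between them. The nearest for *mug4* was *map2*, with 73 between them, and for *ste7* it was *shk2*, with 75. RefSeq places 3 noncoding genes over the *mei2* locus, 2 over *mug14*, and 2 with the protein-coding gene *ipi1* over *mug4*, but 0 genes over *ste7*. The sources used here do not say whether the labeled material kept the strand of the RNA, so signal from these overlapping genes cannot be told apart from that of *mei2*, *mug4* and *mug14*.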

How the data were processed

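RNA of 1 wild-type and 1 *lsg1Δ* culture was measured on 1 array each. The scanner files deposited for each array give the intensity of 69954 spots, read out by Roche Applied Science for the authors, without background values. A further table deposited by the authors gives a normalized intensity for each of 4997 features, by a method the sources used here do not describe, in 2 identical copies, of which 1 was used. Spot intensities were background-corrected by normexp (offset 50), quantile-normalized, averaged over the 2 spots of a probe as log2 values and median-polished over probes (R 4.3.3, limma 3.58.1; tables and figures with Python 3.11.15, numpy 2.4.6, pandas 2.3.3 and matplotlib 3.10.9). The processing was also run on simulated data built from the wild-type probe levels and spot noise. These data held no array-wide difference in intensity and the same fold for every probe of a feature. They therefore say nothing of the spread between probes or arrays seen here. No test was run between 1 array and 1 array, and precision is limited by that number.

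Features were named from the authors' list of lowered genes by finding the feature with the same ratio in the deposited table, whose rows were taken in the order of sorted feature identifiers. For the 4 genes the match was within 9.1e-06, and the next feature was at least 0.0025 away. In that order deposited and scanned log2 levels had a Pearson r of 0.98 across features on either array. RefSeq (assembly ASM294v3) held 60 of the 64 loci and served for names and gene order only, since the sources used here do not name the build behind the array. Genes and lists were chosen with earlier results of these data known. By rule the text names the 4 genes, *lsg1*, *ste11*, *map1*, list members and the 2 named features nearest in ratio to each of the 4. Genes named by position alone were added after their values were seen. The planned motif search was not run, as no promoter sequence was used here.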

Additional observations from a re-analysis of the deposited data

How the results depend on the processing

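No paired analysis was possible because there is only 1 array of either strain and no test. Of 76 log2 ratios of the 4 genes under the alternatives, 68 stayed within the SD of the probes, 8 moved beyond it and 0 changed sign. The 68 include those from leaving out 1 probe at a time and from the median of probe ratios. Such ratios stay close to the reported value by construction, so the share of 68 says little of stability. With the RMA adjustment the ratios were -3.37 for *mei2*, -1.25 for *ste7*, -1.89 for *mug4* and -0.80 for *mug14*. In the authors' deposited table they were -3.22 for *mei2*, -1.24 for *ste7* and -1.69 for *mug4*. Without normalization between arrays *ste7* was at -1.30, a move beyond the SD of its probes (0.11). There the median of all features was -0.20 rather than 0.01. In that setting *mei2*, *mug4* and *mug14* were lower as well, at -2.74, -1.40 and -1.45, within the wider SDs of their probes. The causes of these moves were not tested. Leaving out 1 probe at a time moved *mei2* between -2.65 and -2.48, *ste7* between -1.13 and -1.11, *mug4* between -1.22 and -1.13 and *mug14* between -1.28 and -1.22. Of the 4 genes, 3 were past 2-fold without background correction, 3 were with the RMA adjustment, *mug14* being the exception in both, and 4 under all other alternatives run. Over all features, 53 were lower by more than 2-fold and 17 higher. Without normalization between arrays these were 81 and 8, with a 1.5-fold limit 123 and 99, and the higher ones were 6 without background correction, or 26 with the RMA adjustment. Low signal limits the last *mug4* probe, the first *mug14* probe and 2 probes of *map1*.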
